A study of Mus musculus with 36 samples.

Results

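The 9 genes of the endothelial barrier were followed through the unmyelinated optic nerve (UON), the myelinated optic nerve (MON) and the retina. The members were named by symbol, 9 of the 55487 genes in the count table: Cldn5, Ocln, Tjp1, Cdh5 and Pecam1 for cell contacts, Mfsd2a, Slco1c1 and Abcb1a for transport, and Itm2a, a membrane protein listed among barrier endothelial genes. All 9 passed the filter on low counts in each of the 48 comparisons below. The measurement was bulk RNA-seq of 36 libraries from wild-type C57BL/6 mice aged 2 to 4 months, 12 libraries for each tissue. The groups were bilaterally naïve mice, animals with unilateral optic nerve crush by forceps, sampled 3 D or 2 W later, and animals with microbeads placed in the anterior chamber of 1 eye, the glaucoma model, sampled 3 D, 2 W or 6 W later. RNA of 2 females made 1 library and RNA of 2 males made the other, so each group of each tissue held 2 pools, which differ in sex as well as in mice. The 3 tissues were taken from the same mice, and no sham operation is among the groups.

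Endothelial cells of the central nervous system seal their contacts with tight junctions, carry nutrients and hormones across by dedicated transporters, pump drugs back into the blood, and hold transcytosis low. Wnt signals from the surrounding tissue maintain this state in brain and retina, whereas the optic nerve head lies beside the permeable vessels of the choroid. Cldn5 and Ocln are tight junction proteins, Tjp1 (ZO-1) is their scaffold, Cdh5 (VE-cadherin) and Pecam1 (CD31) join endothelial cells without being specific to the barrier, Mfsd2a transports lysophosphatidylcholine and restrains transcytosis, Slco1c1 (Oatp1c1) imports thyroxine, and Abcb1a is the P-glycoprotein efflux pump. Several members are not restricted to endothelium: Tjp1 and Ocln belong to the junctions of epithelia, Slco1c1 is also made by astrocytes, and Pecam1 is carried by platelets and leukocytes.

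On GRCm38, as given in the deposited tables, Cldn5 lies at chr16:18776847-18778262 on the plus strand, Ocln at chr13:100496507-100552718 on the minus strand, Tjp1 at chr7:65296165-65527781 (minus), Cdh5 at chr8:104101625-104144511 (plus) and Pecam1 at chr11:106654217-106750628 (minus). The transport genes are Mfsd2a at chr4:122946850-122961188 (minus), Slco1c1 at chr6:141524368-141570177 (plus) and Abcb1a at chr5:8660077-8748575 (plus), and Itm2a lies at chrX:107397099-107403376 (minus). Exons of Abcb1a overlap those of Gm42686 on the opposite strand. Since the strand setting of the counting is not stated, reads of these 2 genes within the overlap cannot be told apart. The size of this overlap was not measured. The exons of the other 8 members overlap no other gene of the annotation used here.

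The RefSeq table held promoters of 7 of the 9 members. The promoters of 3 genes around which the comparisons turn are shown, as the 250 bases before the start in GRCm38.p6, read 5′ to 3′ on the strand of the gene. Capitals mark a match to the TCF/LEF core CTTTGA on either strand.

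Mfsd2a (chr4:122961189-122961438, minus strand): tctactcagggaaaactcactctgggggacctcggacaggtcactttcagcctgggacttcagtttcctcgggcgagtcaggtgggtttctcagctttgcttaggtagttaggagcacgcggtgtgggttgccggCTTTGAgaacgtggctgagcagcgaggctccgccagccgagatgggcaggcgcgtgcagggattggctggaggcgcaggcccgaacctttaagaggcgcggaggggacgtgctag

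Slco1c1 (chr6:141524104-141524353, plus strand): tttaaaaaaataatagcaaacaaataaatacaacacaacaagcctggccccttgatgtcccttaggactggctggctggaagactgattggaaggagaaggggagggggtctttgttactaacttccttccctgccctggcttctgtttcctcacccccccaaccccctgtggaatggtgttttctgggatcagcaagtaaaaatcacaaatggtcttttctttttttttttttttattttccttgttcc

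Cldn5 (chr16:18776597-18776846, plus strand): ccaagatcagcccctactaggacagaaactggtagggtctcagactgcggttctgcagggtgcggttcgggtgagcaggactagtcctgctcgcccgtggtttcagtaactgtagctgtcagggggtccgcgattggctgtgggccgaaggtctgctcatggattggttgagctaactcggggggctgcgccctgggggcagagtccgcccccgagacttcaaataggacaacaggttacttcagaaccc

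The windows of Mfsd2a and Abcb1a held such a match, and the other 6 of 8 member windows (Ocln has 2 starts) held none. For Abcb1a and Tjp1 the RefSeq start lies far from the outer end of the gene given above: the windows lie at chr5:8566841-8567090, upstream of that gene span, and at chr7:65371245-65371494, inside it. The starts of Slco1c1 and Itm2a and the inner start of Ocln also differ from that end, by much less. Among all 32851 RefSeq promoter windows of this length, 13.8% held CTTTGA on either strand. The ETS core CGGAAG was in the Tjp1 window alone among the 8 and in 13.6% of all windows, and the SOX core ACAAT was in none of the 8 and in 27.7% of all windows.

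The libraries held 16158723 to 78054205 estimated counts in all. Of 20 other pan-endothelial genes, such as Flt1, Kdr, Tie1 and Esam, none was listed at 0 in both pools of any group, and their summed FPKM, a fragment level corrected for transcript length and library size, ranged from 66.9 to 196 over the libraries. Endothelial RNA was thus measured in all 3 tissues, but in whole tissue fewer endothelial cells and less RNA per cell cannot be told apart. Markers of other cells differed between libraries. In MON the summed FPKM of 6 myeloid genes was 283 and 445 in the naïve pools and 1423 and 1888 at 3 D after crush, and that of 6 oligodendrocyte genes went from 55800 and 47760 to 35314 and 28717. The male UON pool at 2 W after crush stood apart, with a summed oligodendrocyte FPKM of 1180 against 4263 to 17701 in the other UON libraries, and 7 fibroblast genes at 1298 against 389 to 1169. Surface epithelial genes were at 835 and 952 FPKM in the male MON pool at 2 W and the female MON pool at 6 W of glaucoma, and at or below 63.1 in all other libraries.

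Naïve levels can be compared between genes as FPKM, which corrects for transcript length. In UON, Itm2a had the highest level of the 9, at 50.4 ± 7.53 FPKM (mean ± SD, n = 2 pools, as for all levels here), next to Slco1c1 at 45.6 ± 3.44, and the pools of these 2 genes overlapped. Tjp1 followed at 34.9 ± 3.32, Cldn5 at 20.3 ± 5.12 and Mfsd2a at 10.9 ± 3.96, each apart from its neighbours. Ocln lay at 6.75 ± 0.879, Pecam1 at 4.77 ± 1.70 and Abcb1a at 4.21 ± 0.664, and the last pair overlapped. Cdh5 was the lowest at 2.53 ± 0.757.

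The order changed in MON. Itm2a was again first, at 22.6 ± 4.14 FPKM, but Mfsd2a was now second at 17.5 ± 0.554, overlapping with Cldn5 at 15.9 ± 3.04, which overlapped with Tjp1 at 15.8 ± 3.44. Slco1c1, second in UON, was eighth in MON at 2.30 ± 0.724 and overlapped with Ocln at 2.42 ± 0.679. Pecam1 (4.52 ± 0.282) and Abcb1a (4.11 ± 1.44) lay between these groups and overlapped. Cdh5 was last at 0.849 ± 0.795, with the female pool at 0.286 and the male pool at 1.41. In the retina Tjp1 led at 9.74 ± 0.380, overlapping with Itm2a at 8.40, with the pools at 6.63 and 10.2, which overlapped with Cldn5 at 7.91 ± 0.620. Slco1c1 (2.71 ± 0.339), Mfsd2a (2.22 ± 0.670) and Pecam1 (1.77 ± 0.162) formed a chain in which each overlapped with the next, and Ocln at 1.298 ± 0.153, Abcb1a at 0.907 ± 0.0302 and Cdh5 at 0.171 ± 0.0905 followed, each apart from the next.

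**Figure D1:**
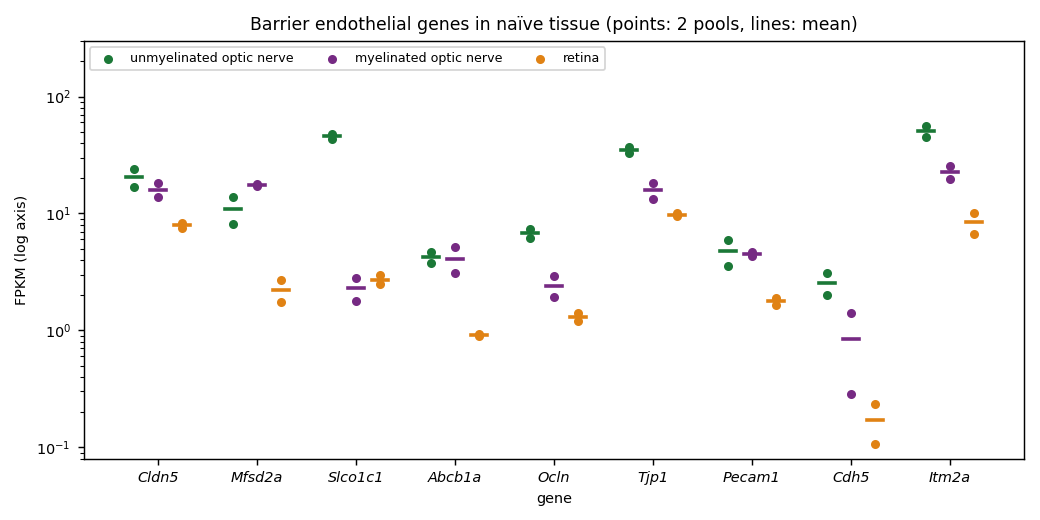
FPKM of the 9 genes (log axis) in naïve UON, MON and retina, with 1 point for each of 2 pools and a line at their mean. Slco1c1 stands at 45.6 FPKM in UON and at 2.30 and 2.71 in MON and retina, and Mfsd2a is highest in MON.

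The regional comparison asked which genes differ between the 3 naïve tissues. All 9 members were higher in UON than in retina and 8 of 9 were higher in MON than in retina, while 3 of 9 (Slco1c1, Tjp1 and Itm2a) were higher in UON than in MON. Calls required an adjusted p below 0.05 (edgeR's quasi-likelihood test, Benjamini-Hochberg over all genes tested) and a log2 fold change beyond 1. The same rule called 31.7% of 23685 genes in UON over retina, 27.6% in MON over retina and 9.63% in UON over MON. Counting higher calls alone, the shares of all genes were 18.2%, 16.7% and 4.83%. The members' median log2 fold changes were 2.84, 1.90 and 1.09 in these comparisons, and the medians of all genes were -0.17, 0.00 and -0.06.

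Slco1c1 had the widest difference between the nerve regions. Its CPM (counts scaled to library size with TMM factors) was 159 and 200 in the female and male naïve UON pools, 7.93 and 11.1 in MON, and 7.41 and 8.67 in retina. Both UON pools lay far above the other 4 libraries, which overlapped. The log2 fold change was 4.21 (SE 0.23, adjusted p = 0.00139) over MON and 4.44 (SE 0.23, adjusted p = 2.75e-05) over retina, 18.5 and 21.6 times, and MON over retina gave 0.23 (SE 0.21, adjusted p = 0.47). Astrocyte genes summed to 5874 and 6496 FPKM in the UON pools, 4085 and 3172 in MON and 84.4 and 90.1 in retina, and their part in the level of Slco1c1 was not tested.

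Mfsd2a followed another order, with MON first. Its CPM was 47.9 and 44.6 in the naïve MON pools, 20.99 and 36.99 in UON and 4.60 and 3.12 in retina. The pools of the 3 tissues did not overlap. MON was 11.9 times the retina (log2 fold change 3.57, SE 0.38, adjusted p = 0.000438) and UON 7.21 times the retina (2.85, SE 0.37, adjusted p = 0.00102), whereas the difference between UON and MON, a log2 fold change of -0.73 (SE 0.34), did not pass (adjusted p = 0.255). For Abcb1a, the efflux pump, the pools were at 22.3 and 30.3 CPM in UON, 20.1 and 19.1 in MON and 4.50 and 3.87 in retina. Abcb1a was called higher in both nerve regions than in retina, with log2 fold changes of 2.60 (SE 0.31, adjusted p = 0.000693) and 2.22 (SE 0.31, adjusted p = 0.00153), and between the nerve regions the estimate was 0.38 (SE 0.29, adjusted p = 0.494).

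Among the junction genes, Cldn5 was at 29.6 and 44.7 CPM in naïve UON, 27.3 and 31.5 in MON and 11.49 and 10.02 in retina. The nerve regions overlapped and both lay above the retina. Cldn5 had the smallest of the members' log2 fold changes over retina in UON, 1.72 (SE 0.28, adjusted p = 0.00293), with 1.44 (SE 0.28, adjusted p = 0.00714) in MON. Tjp1, the scaffold protein, was at 251 and 219 CPM in UON, 137 and 80.8 in MON and 30.6 and 32.8 in retina, falling from UON to MON to retina without overlap. Its log2 fold change was 1.10 (SE 0.25, adjusted p = 0.0357) for UON over MON and 2.84 (SE 0.26, adjusted p = 0.000214) for UON over retina. Ocln had the same order, at 27.4 and 25.3, 12.8 and 9.68, and 4.70 and 5.40 CPM. Ocln was called higher in UON than in retina (2.34, SE 0.32, adjusted p = 0.00122) and in MON than in retina (1.15, SE 0.31, adjusted p = 0.0286), and UON over MON fell short at 1.20 (SE 0.31, adjusted p = 0.0537).

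The 2 general endothelial adhesion genes differed from each other. Pecam1 was at 14.7 and 25.6 CPM in UON, 21.2 and 17.7 in MON and 4.77 and 5.06 in retina, so that the nerve regions overlapped (log2 fold change -0.02, SE 0.34, adjusted p = 0.991) and both stood above the retina, 3.92 and 3.98 times (log2 fold changes 1.97 and 1.99, SE 0.35 each). Cdh5 was at 14.9 and 10.5 CPM in UON, 1.61 and 6.97 in MON and 0.427 and 0.907 in retina. The MON pools differed widely and lay between the others. Cdh5 was called higher in UON than in retina (4.45, SE 0.77, adjusted p = 0.00388) and in MON than in retina (2.54, SE 0.72, adjusted p = 0.0335), with UON over MON at 1.91 (SE 0.71, adjusted p = 0.155). Itm2a was at 122 and 104 CPM in UON, 62.6 and 42.4 in MON and 17.2 and 10.9 in retina, stepping down without overlap, and was called in all 3 comparisons (1.09, SE 0.21, adjusted p = 0.0205 for UON over MON, 2.99 and 1.90 over retina). Itm2a is also known from mesenchymal cells, and fibroblast genes summed to 551 and 573 FPKM in UON, 141 and 90.2 in MON and 1.82 and 1.65 in retina; their part in its levels was not tested.

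The regional calls did not all withstand the removal of 1 pool. The 9 calls of UON over retina and the Slco1c1 call of UON over MON held whichever of the 6 naïve libraries was left out. Tjp1 (UON over MON) was lost without either UON pool (adjusted p = 0.0577 and 0.128) and without the male MON pool (0.0981), Itm2a without the male UON pool (0.207) and without the male MON pool (0.0556), Cdh5 (MON over retina) without the male MON pool (0.242), Cldn5 without the male retina pool (0.0603), and Ocln without the female MON pool (0.117) and either retina pool (0.248 and 0.0599), all with their direction kept.

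The 20 other pan-endothelial genes give a reference for these differences. In UON over MON 0 of 20 were called by edgeR's test and 0 by DESeq2, 1 had an unadjusted p below 0.05, with a median log2 fold change of 0.18, against 3 of 9 members with a median of 1.09. Over retina 13 of 20 were higher and 1 lower in UON (median 2.02) and 12 higher and 1 lower in MON (median 1.73). The lower gene was Kdr in both, at 76.7 CPM in naïve retina, 19.1 in UON and 12.6 in MON. Of 14 other junction genes 8 were higher and 2 lower in UON than in retina, 4 were higher and 3 lower in MON than in retina, and 2 were higher in UON than in MON. Of 17 other barrier transporters 9 were higher and 2 lower in UON than in retina, 8 were higher and 1 lower in MON than in retina, and 3 were higher and 1 lower in UON than in MON. Of 19 Wnt pathway genes and transcription factors of the barrier 14 were higher in UON than in retina, 11 in MON than in retina and 5 in UON than in MON, with none lower. Of 9 genes of leaky or activated endothelium 6 were higher and 1 lower in UON than in retina. In the same list 5 genes were higher in MON than in retina and 2 in UON than in MON, with none lower. Of 10 pericyte genes 5 were higher and 1 lower in UON than in retina. In that list 4 were higher and 1 lower in MON than in retina, and 1 was lower in UON than in MON. These counts were not tested against those of other genes. Measured within each library as log2 CPM minus the mean log2 CPM of the 20 pan-endothelial genes, Slco1c1 was at 3.37 and 3.09 in the naïve UON pools and at -0.97 and -0.34 in MON, whereas Cldn5 was near 1 in all 3 tissues (0.76 to 1.15). Mfsd2a was at 1.56 and 1.62 in MON, 0.48 and 0.67 in UON and -0.08 and -0.66 in retina by the same measure.

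Crush was applied to the nerve behind the eye, and its comparison asked what changed at 3 D and 2 W in each tissue. Mfsd2a fell in MON at 3 D, the 1 of 54 tests of members that passed. In that comparison 4.26% of 19988 genes were called, and 0.655% of the 19988 were called lower. The other 8 members were not called there, and none was called in MON at 2 W (2.72% of genes called), in UON at 3 D (0 of 21368 genes) or 2 W (0.0281%), or in retina at 3 D (0.0221%) or 2 W (0.313%). At an unadjusted p below 0.05 edgeR had 9 of the 54 member tests, 16.7% in all, against 10.6% of all gene tests in these comparisons, and DESeq2 called 4 of the 54. The shares of all genes given here and below come from edgeR. None is given for DESeq2, so its counts of members and of listed genes have no such reference. All crush and glaucoma comparisons of a tissue use the same 2 naïve pools, so their values below are not independent of each other.

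Mfsd2a was at 47.9 (female) and 44.6 (male) CPM in naïve MON, 15.7 and 8.15 at 3 D after crush, and 12.5 and 16.5 at 2 W. All 4 crush pools lay below both naïve pools and the 2 times overlapped. At 3 D the log2 fold change was -1.90 (SE 0.40, adjusted p = 0.0434), 3.73 times lower, and at 2 W -1.62 (SE 0.39, adjusted p = 0.0804). The call at 3 D was made under each of 5 other settings of the analysis and without the female 3 D pool or either 2 W pool. It was lost without the male 3 D pool (log2 fold change -1.41, adjusted p = 0.132) and without the female or the male naïve pool (-2.01 and -1.81, adjusted p = 0.191 and 0.194). In UON, Mfsd2a was at 20.99 and 36.99 CPM in the naïve pools, 9.51 and 8.18 at 3 D and 11.1 and 4.75 at 2 W, again with all 4 crush pools below both naïve pools, but the log2 fold changes of -1.74 (SE 0.56, adjusted p = 1) and -1.95 (SE 0.57, adjusted p = 0.489) did not pass. The lower UON pool at 2 W, at 4.75, is the male pool that stood apart above in its markers of other cells. With 1 library left out at a time the UON estimate at 2 W ran from -2.74 to -1.15. In retina the pools were at 4.60 and 3.12 naïve, 1.56 and 3.29 at 3 D and 1.44 and 2.97 at 2 W, with log2 fold changes of -0.79 (SE 0.49) and -0.97 (SE 0.49, adjusted p = 0.638).

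The same libraries give the other endothelial genes beside Mfsd2a. In MON the median log2 fold change of the 20 pan-endothelial genes was 0.56 at 3 D, with 1 called higher (Cd93, a receptor of endothelium that myeloid cells also carry, 3.55, SE 0.38, adjusted p = 0.00822) and none lower, and -0.37 at 2 W, with 0 called by edgeR, 3 at an unadjusted p below 0.05 and 2 called by DESeq2. Relative to the mean of the 20 genes, Mfsd2a went from 1.56 and 1.62 in the naïve MON pools to -0.50 and -1.59 at 3 D and 0.62 and -0.01 at 2 W, mean changes of -2.63 and -1.28 on the log2 scale. In UON it went from 0.48 and 0.67 to -1.13 and -0.89 at 3 D and -0.27 and -2.25 at 2 W, changes of -1.59 and -1.84. With the median of the 20 genes as the reference the 4 changes were -2.97, -1.54, -1.91 and -1.79. Beside these changes stand the summed oligodendrocyte FPKM, given above for MON, which in UON was 11465 and 8180 in the naïve pools, 7319 and 9016 at 3 D, and 10145 and 1180 at 2 W. Their part in the change of Mfsd2a was not tested.

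Cldn5 and Pecam1 had estimates above 0 in MON at 3 D after crush, which did not pass. Cldn5 was at 27.3 and 31.5 CPM in the naïve MON pools, 59.9 and 78.7 at 3 D and 9.26 and 30.3 at 2 W. Both 3 D pools lay above all other MON crush and naïve pools. The log2 fold change at 3 D was 1.303 (SE 0.39, adjusted p = 0.116) and 2 W over 3 D gave -2.01 (SE 0.41, adjusted p = 0.115), where 0.075% of 19988 genes were called. Pecam1 was at 21.2 and 17.7 CPM naïve, 32.5 and 48.2 at 3 D and 7.06 and 17.0 at 2 W, with a log2 fold change of 1.07 (SE 0.39, adjusted p = 0.176) at 3 D and of -1.85 (SE 0.40, adjusted p = 0.132) for 2 W over 3 D. The 4 platelet genes Pf4, Ppbp, Itga2b and Gp9 summed to 4.68 and 5.62 FPKM in the naïve MON pools, 56.5 and 101 at 3 D and 15.03 and 8.07 at 2 W, and their part in the values of Cldn5 and Pecam1 was not tested. Relative to the 20 pan-endothelial genes the mean change at 3 D was 0.56 for Cldn5 and 0.36 for Pecam1, and 0.22 and 0.02 with the median of those genes as the reference.

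Slco1c1 had opposite estimates in the nerve regions at 2 W after crush. In UON it was at 159 and 200 CPM naïve, 114 and 29.4 at 3 D and 62.7 and 100 at 2 W, below both naïve pools in each crush pool, with log2 fold changes of -1.41 (SE 0.64, adjusted p = 1) and -1.14 (SE 0.61, adjusted p = 0.608). In MON it was at 7.93 and 11.1 naïve, 5.37 and 8.44 at 3 D and 18.2 and 22.5 at 2 W, where the log2 fold change was 1.15 (SE 0.35, adjusted p = 0.152). The difference in response at 2 W, MON minus UON, was 2.30 (SE 0.74, adjusted p = 0.30) and did not pass. In this comparison edgeR called 0 of 25011 genes. Both tissues of a pool came from the same mice, and with the pool as a block, chosen after seeing the data, the difference was 2.33 (SE 0.66, adjusted p = 0.212). It was called with no filter on low counts (adjusted p = 0.00199) and without either UON pool at 3 D (0.0468 and 0.04996).

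The other members stayed without a call after crush. In MON at 3 D, Cdh5 had a log2 fold change of 1.06 (pools at 5.72 and 9.96 CPM, overlapping with the naïve 1.61 and 6.97), and Abcb1a, Ocln, Tjp1 and Itm2a lay between -0.41 and 0.08. In UON at 2 W, Ocln was at 7.68 and 16.3 CPM against 27.4 and 25.3 naïve (log2 fold change -1.23, SE 0.44, adjusted p = 0.509) and Tjp1 at 134 and 123 against 251 and 219 (-0.88, SE 0.29, adjusted p = 0.496). Both genes lay below the naïve pools in both crush pools. The male UON pool at 2 W, named above for its other cell markers, had the highest level of any library for Cldn5 (111 CPM, female pool 40.3), Pecam1 (48.5, female pool 12.8) and Itm2a (340, female pool 103). Without it the log2 fold change of Cldn5 in UON at 2 W was 0.31 in place of 0.92, that of Pecam1 -0.50 in place of 0.45 and that of Itm2a 0.10 in place of 0.66. Pooled UON levels at 2 W for these 3 genes thus rest on that library. In the same way Cdh5 in UON at 3 D was at 7.69 CPM in the female and 40.5 in the male pool.

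After crush in MON, edgeR called 8 of 174 tests of genes in the pan-endothelial list and 5 other vascular lists, 45 had an unadjusted p below 0.05, and DESeq2 called 26. In the same comparisons edgeR called 4.26% of 19988 genes at 3 D and 2.72% at 2 W. Whether the listed genes were called more often than all genes was not tested. The share of all genes at an unadjusted p below 0.05 is not given for 1 tissue alone. Counts of listed genes at that limit after crush thus have no such reference. At 3 D the organic anion transporter Slc22a8 fell (log2 fold change -2.83, SE 0.59, adjusted p = 0.0438), as did Lrp6, a co-receptor of Wnt signals (-1.88, SE 0.30, adjusted p = 0.0199), and Icam1, which binds leukocytes, rose (1.54, SE 0.31, adjusted p = 0.0383). In MON at 2 W Icam1 (2.48, SE 0.32, adjusted p = 0.0187) and Vcam1, its partner in leukocyte adhesion (3.32, SE 0.44, adjusted p = 0.0204), rose, together with the transporter Slco2b1 (1.503, SE 0.29, adjusted p = 0.0465) and the junction protein F11r (1.36, SE 0.27, adjusted p = 0.0478). These were 1 of 17 transporters, 1 of 19 Wnt and transcription factor genes, 1 of 9 genes of leaky or activated endothelium and 0 of 12 tested junction genes at 3 D (DESeq2 1, unadjusted p below 0.05 in 3), and 1, 0, 2 and 1 at 2 W, and 0 of 10 pericyte genes at either time (DESeq2 2 at each, unadjusted p below 0.05 in 4 at each). In UON and retina edgeR called 0 of 346 tests of genes in the same lists after crush, 33 had an unadjusted p below 0.05, and DESeq2 called 4. Icam1, Vcam1, Slco2b1 and Cd93 are also made by myeloid cells, whose marker levels in MON are given above, and the part of those cells in these values and in the mean of the 20 genes was not tested.

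**Figure D2:**
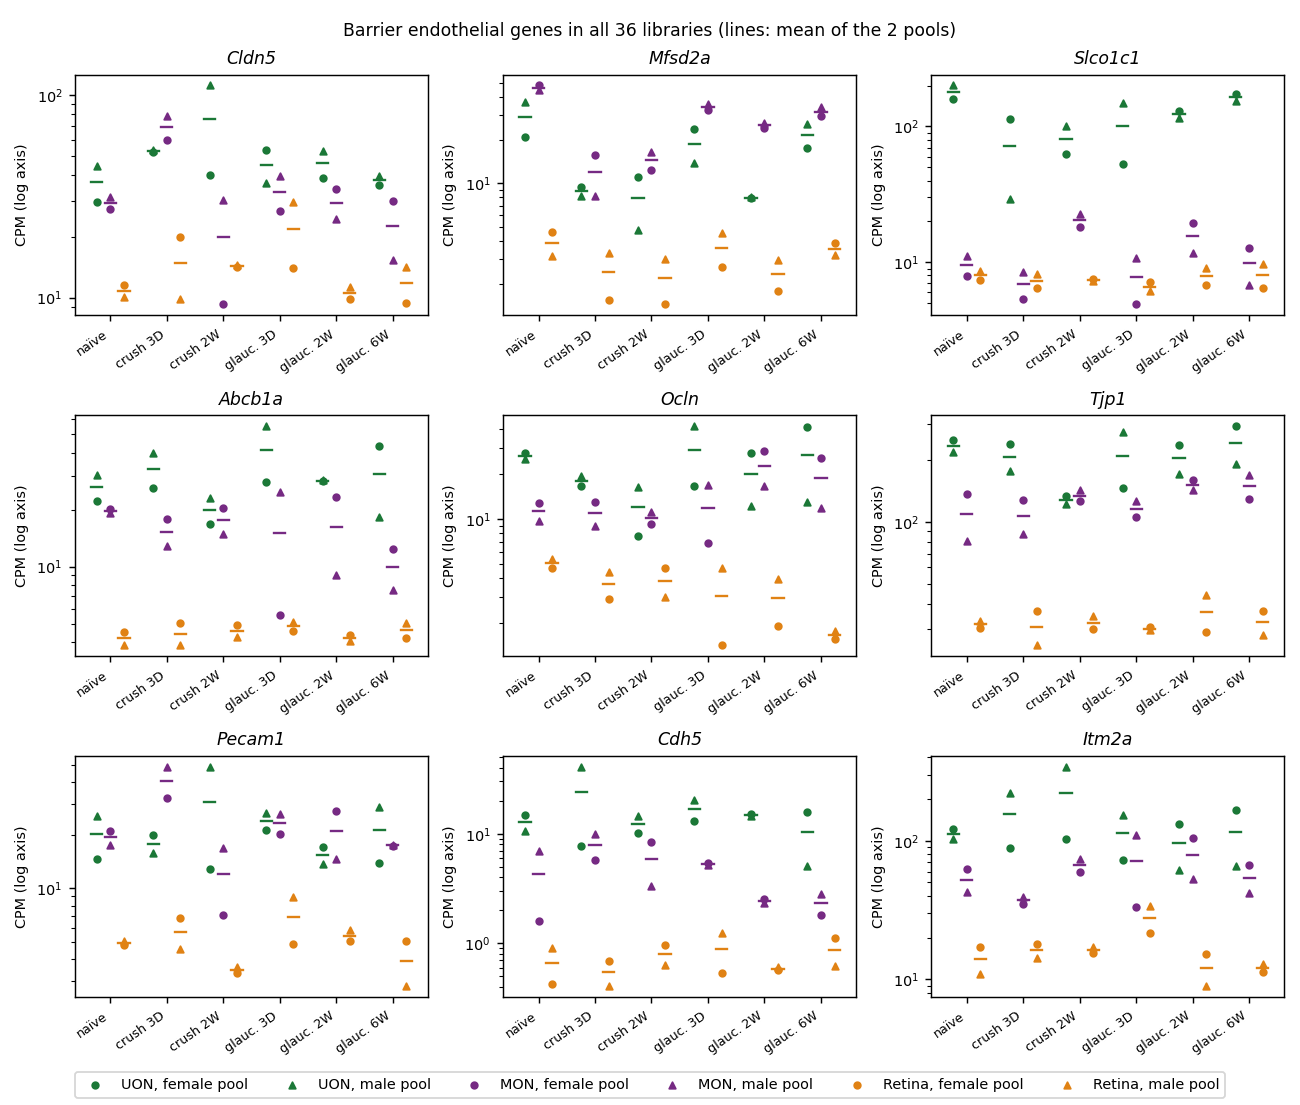
CPM (log axis) of each gene in all 36 libraries by condition, with circles for female and triangles for male pools of UON (green), MON (purple) and retina (orange) and lines at the mean of 2 pools. Mfsd2a in MON falls from 47.9 and 44.6 CPM to 15.7 and 8.15 at 3 D after crush, and Slco1c1 in UON stays above MON and retina in all conditions.

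Glaucoma gave no called member in any of the 9 comparisons with naïve tissue by edgeR, where 0.00146% of all gene tests were called, 0% in UON, MON and retina at 2 W, 0.00429% in retina at 3 D and 0.00858% in retina at 6 W. At an unadjusted p below 0.05 there were 7 of 81 member tests, 8.64%, against 5.49% of all gene tests, and DESeq2 called 1 (Mfsd2a in UON at 2 W). Mfsd2a in UON was at 23.7 and 13.8 CPM at 3 D, 7.874 and 8.003 at 2 W and 17.6 and 25.7 at 6 W, against 20.99 and 36.99 in naïve tissue. The 2 W pools were the lowest and closest together, with a log2 fold change of -1.83 (SE 0.43, adjusted p = 1), whereas 3 D and 6 W overlapped with naïve. In MON it was at 32.4 and 35.5 CPM at 3 D, 24.3 and 26.3 at 2 W and 29.2 and 33.8 at 6 W, all 6 pools below the naïve 47.9 and 44.6. The log2 fold changes were -0.49, -0.89 and -0.61 (SE 0.20, 0.21 and 0.20), with adjusted p of 0.613, 0.306 and 0.849. In retina the estimates were -0.14, -0.75 and -0.13.

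Over both injuries Mfsd2a was the member with estimates of 1 sign throughout, below 0 in 15 of 15 comparisons, 10 of them with both injured pools below both naïve pools. The 15 comparisons share 3 pairs of naïve pools and are not separate evidence. In 1 of these comparisons, MON at 3 D after crush, 29.6% of all genes had both injured pools below both naïve pools. The share in the other comparisons is not given here, so the 10 of 15 has no full reference. Slco1c1 was below 0 in 12 of 15 and Ocln in 10 of 15, and Cldn5 and Itm2a were above 0 in 11 and 10 of 15.

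The other members varied between pools in glaucoma. Abcb1a in MON was at 5.55 and 24.6 CPM at 3 D, 23.4 and 9.06 at 2 W and 12.3 and 7.51 at 6 W (log2 fold change -1.04 at 6 W, SE 0.71, adjusted p = 0.849), against 20.1 and 19.1 naïve. Ocln in MON was at 28.6 and 16.6 CPM at 2 W and 25.7 and 11.8 at 6 W against 12.8 and 9.68 naïve, log2 fold changes of 0.97 and 0.66. The pools at 16.6 (male, 2 W) and 25.7 (female, 6 W) are those with high surface epithelial genes above. The part of such cells in the Ocln values was not tested. The higher pools of Abcb1a and Ocln did not follow 1 sex. In retina, Ocln was at 1.57 and 1.77 CPM at 6 W against 4.70 and 5.40 naïve, both pools lower (-1.58, SE 0.43, adjusted p = 0.791). Cldn5 in retina at 3 D was at 14.0 and 29.6 CPM against 11.49 and 10.02 (0.93, SE 0.31, adjusted p = 0.729) and Itm2a at 21.6 and 33.8 against 17.2 and 10.9 (1.01, SE 0.35, adjusted p = 0.741). The 20 pan-endothelial genes had a median of 0.35 in that comparison. Over the 20 genes and the 5 other vascular lists edgeR called 0 of 789 tests in glaucoma, 61 had an unadjusted p below 0.05, and DESeq2 called 8. Among all gene tests in glaucoma 5.49% had an unadjusted p below 0.05, and the lists were not tested against this share.

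**Figure D3:**
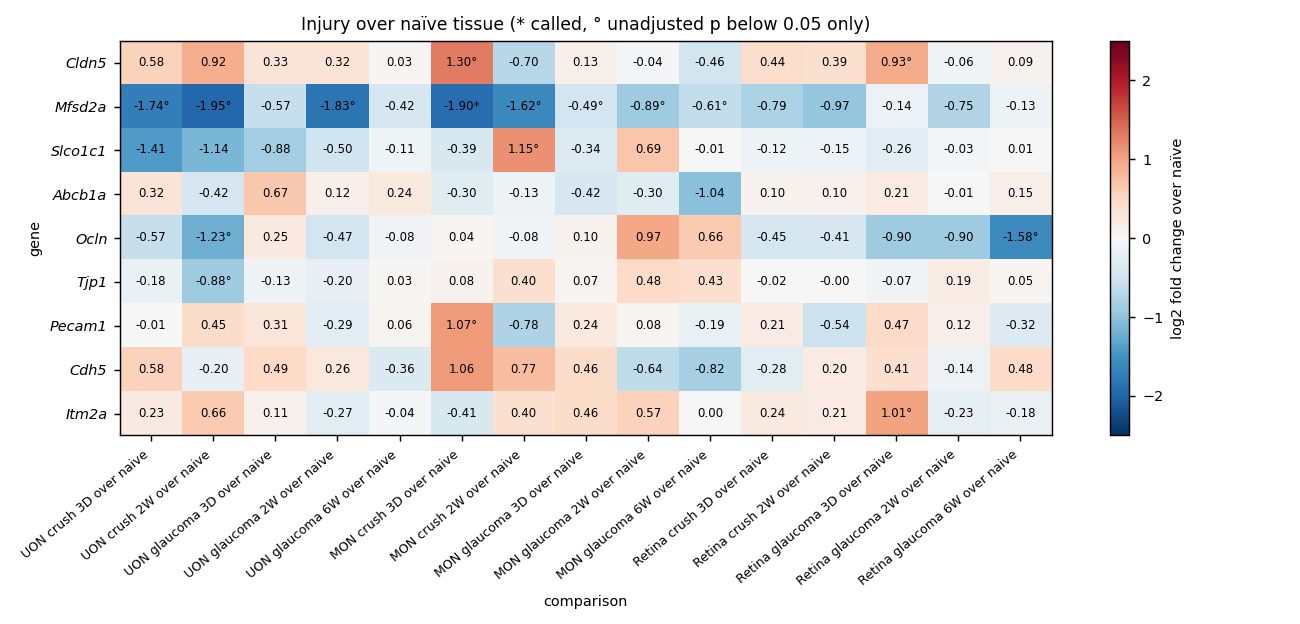
Log2 fold change over naïve tissue (colour and printed value) of each gene in the 15 injury comparisons, with an asterisk for a call and a circle for an unadjusted p below 0.05 only. The single call is Mfsd2a in MON at 3 D after crush (-1.90), and the Mfsd2a row is negative throughout.

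Direct comparisons of times and of the 2 injuries gave no called member by edgeR. Between times, 10 of 81 member tests had an unadjusted p below 0.05 (12.3%, against 6.76% of all gene tests, with 0.0154% of gene tests called) and DESeq2 called 4. Beside Cldn5 and Pecam1 in MON given above, Slco1c1 in MON was higher at 2 W than at 3 D after crush by 1.54 (SE 0.36, adjusted p = 0.147), with both 2 W pools above both 3 D pools. Between crush and glaucoma at the same time, 4 of 54 member tests had an unadjusted p below 0.05 (7.41%, against 6.95% of gene tests, 0.0382% called) and DESeq2 called 1. For Mfsd2a in MON at 3 D the crush pools (15.7 and 8.15 CPM) lay below the glaucoma pools (32.4 and 35.5), a log2 fold change of -1.48 (SE 0.32, adjusted p = 0.34), and at 2 W 12.5 and 16.5 lay below 24.3 and 26.3 (-0.78, SE 0.31, adjusted p = 0.596). In UON at 2 W the 2 injuries gave 11.1 and 4.75 against 7.874 and 8.003 CPM, which overlapped (-0.03, SE 0.50).

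The responses of members were not shown to differ between tissues. In 15 interaction comparisons edgeR called 0 of 135 member tests (0.104% of all gene tests called), 7 had an unadjusted p below 0.05 (5.19%, against 7.14% of gene tests), and DESeq2 called 1. With the pool of mice as a block edgeR called 0 of 135 and 11 had an unadjusted p below 0.05. The share of all genes in the block fits is not given here, so these 2 counts have no such reference. For Mfsd2a, called in MON at 3 D after crush and not in UON or retina, the response in MON minus that in UON was -0.21 (SE 0.67, adjusted p = 1) and MON minus retina -1.21 (SE 0.68, adjusted p = 0.444). For Cldn5 at 2 W after crush, MON minus UON was -1.60 (SE 0.55, adjusted p = 0.324), and this difference contains the male UON pool named above.

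**Figure D4:**
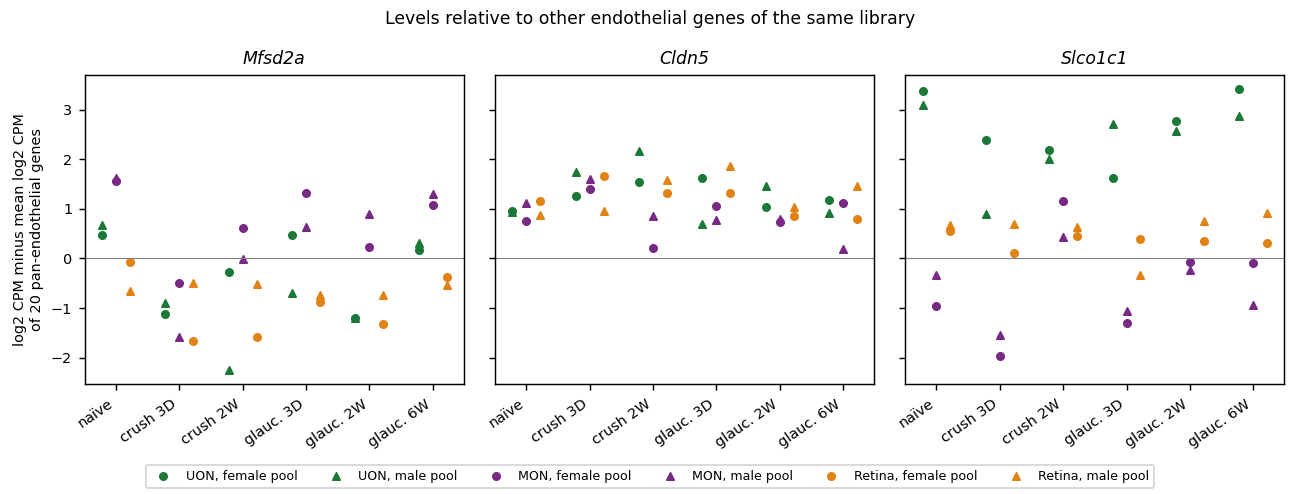
Log2 CPM of Mfsd2a, Cldn5 and Slco1c1 minus the mean log2 CPM of 20 pan-endothelial genes in the same library, by condition, for each pool. Mfsd2a in MON drops from 1.56 and 1.62 to -0.50 and -1.59 at 3 D after crush, Cldn5 stays above 0 in all libraries, and Slco1c1 is highest in UON.

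The members did not vary as 1 block. With log2 CPM centred within each tissue, Pearson's r over the 36 libraries was 0.74 for Cldn5 and Pecam1 and 0.53 for Ocln and Tjp1, and -0.30 for Cldn5 and Mfsd2a, -0.41 for Cldn5 and Tjp1 and -0.40 for Mfsd2a and Cdh5. The pair of Cldn5 and Pecam1 depended on the measure, with a Spearman's rho of 0.41, below the 0.50 of Ocln and Tjp1. Without the male UON pool at 2 W after crush, which was the highest for both genes, r was 0.69 and rho 0.37. The points share tissues, mice and library depth, and the coefficients are descriptions. With the mean of the pan-endothelial genes at or above 1 CPM (19 of 20), r was 0.85 for Pecam1 and 0.77 for Cldn5 (Spearman's rho 0.74 and 0.57), and between -0.12 (Mfsd2a) and 0.26 (Abcb1a) for the other 7. Cdh5, an endothelial cadherin, was at 0.01 by this measure. The genes nearest to Cldn5 were Esam, Tie1 and Egfl7 (0.80, 0.80 and 0.78), all of endothelium, and those nearest to Pecam1 were Adgrl4, Esam and Tie1 (0.75, 0.74 and 0.74). Mfsd2a was nearest to Rcan2 (0.83) and had the glucose transporter Slc2a1 among its nearest genes (0.80), and its r was 0.71 with the oligodendrocyte genes and -0.64 with the myeloid genes. Cdh5 was nearest to Vill and Fn1 (0.81 and 0.80), Tjp1 to Sun1 (0.85) and Itm2a to Mfap5 (0.80), with r of 0.66 between Itm2a and the fibroblast genes. The genes most like the mean profile of all 9 were Podxl (r = 0.71), C1qtnf2 (0.67), Tmem100 (0.66), Itga11 (0.66), Arhgap29 (0.66), Lima1 (0.65), Tgfbr3 (0.65) and Cfhr2 (0.65) among 16804 genes outside the members.

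**Figure D5:**
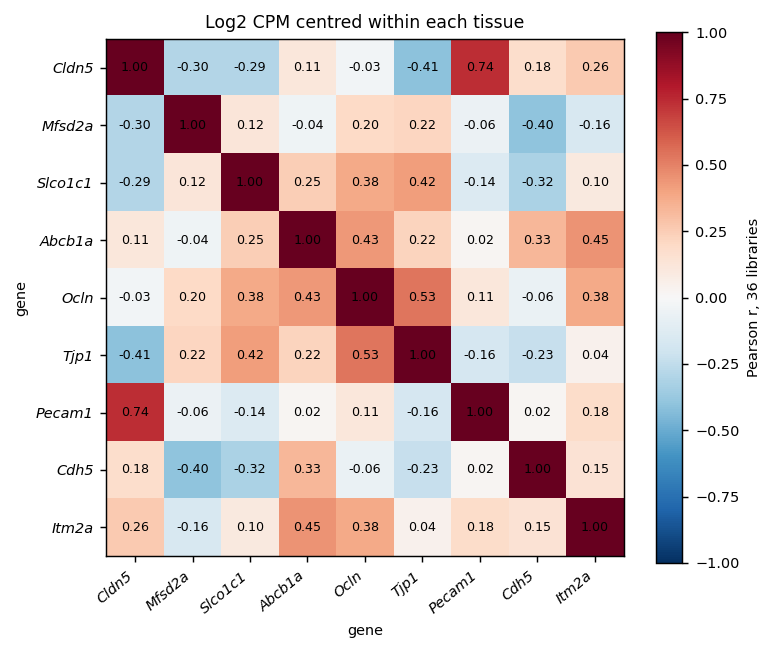
Pearson's r between the 9 genes over 36 libraries, after centring log2 CPM within each tissue. Cldn5 and Pecam1 have the highest r (0.74, Spearman's rho 0.41), and Mfsd2a is negative with Cldn5 (-0.30) and Cdh5 (-0.40).

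Transcript counts, split by StringTie among the transcripts of each gene, add the start sites. Ocln has 5 annotated transcripts on the minus strand of chr13, of which Ocln-201 starts at 100552718 and Ocln-202 at 100552498 (GRCm38). Ocln-202 took 86.0% of the pooled Ocln counts in retina, with 100% in 9 of 12 libraries, against 30.1% in UON and 36.7% in MON. Single libraries ran from 0 to 100% in each of the 3 tissues. For Slco1c1, the transcript Slco1c1-202, annotated for nonsense-mediated decay, had counts in 10 of 12 UON libraries (18.4% of pooled counts), in 0 of 12 MON libraries and in 1 of 12 retina libraries. Its share ran from 0 to 43.8% in single UON libraries and was 40.5% in that retina library. The gene had 776 to 8387 estimated counts per UON library, 92 to 734 per MON library and 184 to 481 per retina library. Absence of the transcript in MON and retina thus rests on fewer counts. These splits were not tested. Mfsd2a came mainly from Mfsd2a-201, at 92.1 to 93.7% of pooled counts in the 3 tissues. For Abcb1a, the transcript Abcb1a-202, annotated as a retained intron, took 9.46% of pooled counts in UON, 9.76% in MON and 0.0824% in retina. Single libraries reached 53.6% in UON and 74.5% in MON. Its part in the levels of Abcb1a was not tested.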

How the data were processed

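RNA of micro-dissected UON, MON and retina was pooled by sex and 36 libraries were sequenced with paired reads. The authors aligned them to GRCm38 with HISAT2 2.2.1 and ran StringTie 1.3.0 with Gencode M25. The authors deposited estimated counts for genes and transcripts, which StringTie's script derives from coverage and length and rounds up, with no normalization. The deposited FPKM and the deposited TPM per gene are the authors' StringTie values. Where such a deposited column held values just below 0, it was treated as a score and those values were set to 0. The strand setting is not given in the sources used here.

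From the counts, edgeR 4.0.16 (R 4.3.3) was used with TMM, filterByExpr (minimum count 10, minimum total 15) and the quasi-likelihood test with group and sex as terms on all genes, with Benjamini-Hochberg adjustment over all genes tested. Fits held the 6 naïve libraries, the libraries of 1 tissue for 1 or both injuries, or those of 2 tissues. P-values rest on the spread between pools of 2 mice that is left after group and sex. That spread is taken over all groups of a fit and moderated across genes. CPM use TMM over all 36 libraries, with 0.5 added before log2, and patterns used genes with a mean of at least 1 CPM. Alternatives were DESeq2 1.42.0, RLE factors, no filter, no sex term, adjusted p alone, 1 fit of all libraries, and each library left out, and, added after seeing the data, the pool of mice as a block in fits of 2 tissues. All 9 members are named, and genes of other lists where at most 4 of a list were called in a family of comparisons, and the 8 genes with the highest Pearson's r to the members' mean profile. The members and lists were chosen with earlier results of these data known. Promoters are from RefSeq (GRCm38.p6), transcripts and overlaps from GENCODE M21.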

Additional observations from a re-analysis of the deposited data

How the results depend on the processing

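With 2 pools in each group and sex as a term, few degrees of freedom remain, so an uncalled member is not shown to be unchanged. The regional count of 20 called members was 18 to 22 under other settings and 17 to 20 with 1 library left out. The crush count of 1 was 4 with DESeq2, 3 with no filter and 2 with no sex term, and 0 to 5 with 1 library left out. The highest count, 5, came without the male MON pool at 2 W after crush, and 0 came without either naïve MON pool. DESeq2 added Mfsd2a in MON and UON at 2 W (adjusted p = 0.0024 and 0.0356) and Cldn5 in MON at 3 D (0.0213). The UON call at 2 W includes the male pool that stood apart in its markers of other cells. The glaucoma count of 0 was 1 with DESeq2 (Mfsd2a in UON at 2 W, log2 fold change -1.82, adjusted p = 0.0404) and stayed 0 with each library left out. The count of 0 between times was 4 with DESeq2 and 3 with no filter, and 0 to 2 with 1 library left out. The count of 0 for crush against glaucoma was 1 with DESeq2 and 1 with no filter, and 0 to 1 with 1 library left out. The count of 0 for differences between tissues was 1 with DESeq2 and 1 with no filter, 0 with the pool of mice as a block, and 0 to 1 with 1 library left out. The causes were not tested, and the counts with DESeq2 are given without the share of all genes that it called. No estimate of a called member changed sign. With TPM in place of FPKM, the naïve order was the same for 9 of 9 members in UON and retina and 7 of 9 in MON, and Spearman's rho kept 5 of the 8 genes of like pattern.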
